A study of Mus musculus with 4 samples.

Results

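Enterochromaffin cells, named EC by the authors, were 1013 of the 15234 duodenal crypt cells kept in the 4 libraries of the study. They were taken as the cells carrying that name in the authors' 2 deposited per-cell tables and were traced to their counts by library and barcode. The counts are of UMIs, unique molecular identifiers that each mark 1 captured RNA molecule. Among the other 11 names, NON-EC with 723 cells holds the remaining endocrine cells and EEC-PRE with 542 cells their precursors. WT libraries came from Atoh1CreER-T2;R26RTom mice. APC-KO libraries came from mice whose labels read Atoh1Cre;Apcfl/fl;R26RTom, while the text on the series gives the tamoxifen-inducible driver for both genotypes. Mice of both genotypes had been injected with tamoxifen (1 mg/mL) on 2 occasions 24 h apart and were used 12 h after the last. Living cells positive for TOM, a fluorescent reporter switched on by a recombinase under Atoh1, were sorted, so the libraries hold cells with a history of Atoh1 activity, which marks the secretory lineage. There were 2 libraries per genotype. No label ties a library to 1 animal, so p-values measure only the spread between libraries, which may be technical. Where 4 values follow each other, they are WT 1, WT 2, APC-KO 1 and APC-KO 2.

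Enterochromaffin cells make most of the serotonin of the body. They build it from tryptophan with tryptophan hydroxylase 1 and an amino acid decarboxylase, store it in dense granules together with granins, and release it when stimulated, for example through the irritant channel Trpa1. Like other enteroendocrine cells they arise from secretory progenitors through a transient phase of Neurog3 expression, and many of them also make substance P.

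Bases upstream of a transcription start are shown for 3 genes that lead the list of EC genes described further on, whose window held 1 of the motifs searched, overlapped no annotated exon and had bases after its start that matched the start of a GENCODE transcript of the gene. The first window of Fmo2 met all but the last of these conditions and is not shown. Of the 17 genes that are EC markers or lead the comparison with all other names, 16 were matched in RefSeq's promoter table (GRCm38.p6). The motifs were CATCTG, an E-box of the kind that Neurog3 and Neurod1 bind, TAATTA, a homeodomain core, and TGACGTCA, the cAMP response element. Each was searched on both strands of the 250 bases upstream of a gene's first listed start. CATCTG was found for Tac1 and Ucn3, 2 of the 16, and in 14.5% of 27025 promoters. TAATTA was found for Fmo2, Afp and Tac1, 3 of the 16, and in 4.90% of all promoters. TGACGTCA was found for Chgb, 1 of the 16, and in 1.62% of all. Tph1 had none of the 3 at its first listed start and TAATTA at its second. The sequences run 5′ to 3′ on the gene's strand with matches in capitals, at chr7:46667378-46667627 (minus strand) for Tph1, chr5:90490464-90490713 (plus strand) for Afp and chr13:3945350-3945599 (minus strand) for Ucn3.
Tph1: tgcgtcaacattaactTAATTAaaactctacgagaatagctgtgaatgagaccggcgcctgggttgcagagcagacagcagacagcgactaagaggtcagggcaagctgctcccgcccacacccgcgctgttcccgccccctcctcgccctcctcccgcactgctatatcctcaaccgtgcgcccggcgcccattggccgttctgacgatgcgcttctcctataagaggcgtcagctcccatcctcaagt
Afp: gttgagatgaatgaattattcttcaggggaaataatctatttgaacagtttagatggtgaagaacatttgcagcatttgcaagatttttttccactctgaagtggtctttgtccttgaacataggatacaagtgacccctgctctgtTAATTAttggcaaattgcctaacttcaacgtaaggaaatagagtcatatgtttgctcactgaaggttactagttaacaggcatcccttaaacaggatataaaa
Ucn3: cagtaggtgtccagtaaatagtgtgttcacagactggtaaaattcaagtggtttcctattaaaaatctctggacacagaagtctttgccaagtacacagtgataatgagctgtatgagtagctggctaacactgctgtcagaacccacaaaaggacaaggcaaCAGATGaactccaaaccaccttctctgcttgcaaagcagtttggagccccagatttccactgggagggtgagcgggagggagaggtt
A match describes the letters only. It is not evidence of a bound site.

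The markers of EC were high in each library. Tph1 (chr7:46644641-46672537, minus strand), the rate-limiting enzyme of serotonin synthesis outside the brain, had 2089, 1866, 1724 and 1408.5 counts per 1000000 UMIs (CPM) summed over EC cells. Tac1 (chr6:7554879-7565834, plus strand), the precursor of substance P, had 4223, 4696, 4801 and 2463 CPM. APC-KO 2 was the lowest library for both genes. Trpa1 (chr1:14872648-14918862, minus strand) had 284, 229.8, 359 and 340.5 CPM. The granins, which help to condense the granule's content, were the most abundant of the 5 markers. Chga (chr12:102554969-102565028, plus strand) had 7414, 6549, 8765 and 7377 CPM. Chgb (chr2:132781278-132795079, plus strand) had 60622, 54692, 65832 and 49378 CPM, so that this 1 gene gave between 4.94% and 6.58% of all UMIs of EC cells. Positions are those of GENCODE vM21 on GRCm38.

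Each of the 5 markers was highest in EC among the 12 names, with NON-EC next. NON-EC had a mean of 16.9 CPM of Tph1, 74.5 of Tac1 and 2.7 of Trpa1, against 1772 ± 285, 4046 ± 1085 and 303 ± 58.3 CPM in EC (SD, n = 4). The granins were shared more widely, as NON-EC had 1381 CPM of Chga and 7576 of Chgb. EEC-PRE had 138 CPM of Chga, 243 of Chgb and at most 1.78 of the other 3 markers. With each cell thinned to 2000 UMIs, between 83.9% and 88.9% of EC cells per library held a UMI of at least 3 of the 5 markers. The share was between 0% and 8.96% in NON-EC and 0% in EEC-PRE.

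**Figure D1:**
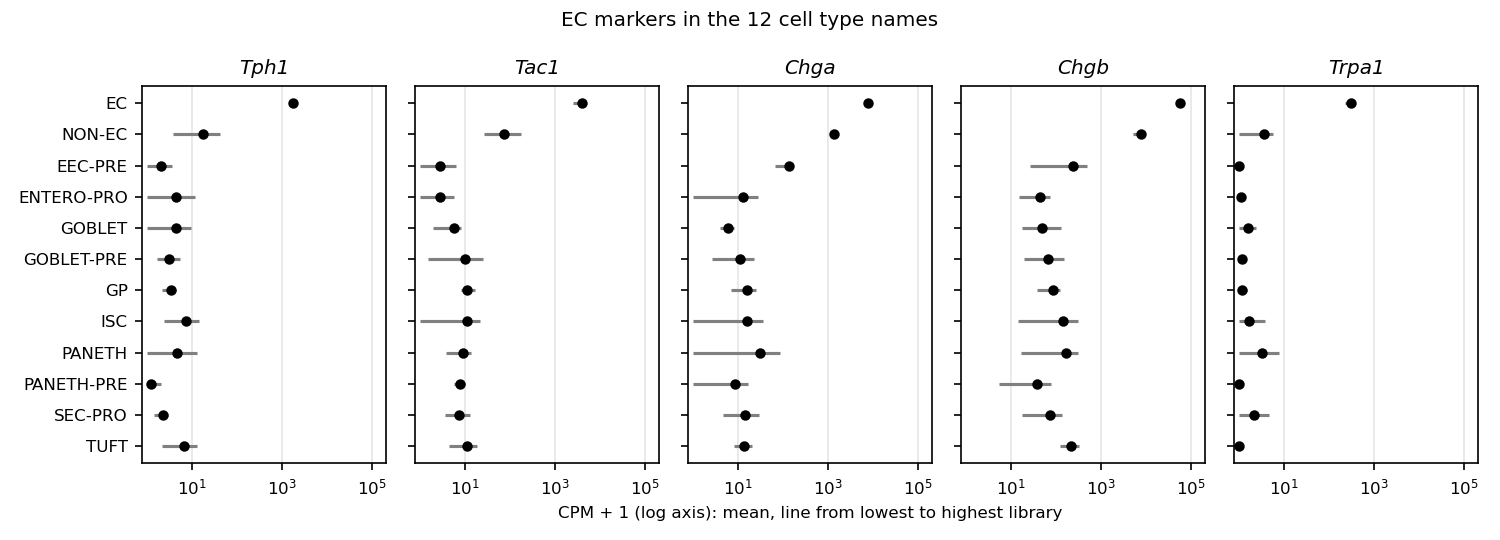
Level of the 5 EC markers in each of the 12 cell type names, in CPM with 1 added, on a log axis. Points are means over the libraries (without APC-KO 1 for GP, SEC-PRO and TUFT, which had under 10 cells there) and lines run from the lowest to the highest library. Each marker is highest in EC and next in NON-EC.

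The EC sums held 1252458, 935725, 273255 and 878242 UMIs from 387, 270, 45 and 311 cells. APC-KO 1 stood apart: 356 of its cells were kept, against 3821 to 6243 in the other libraries, its EC cells had a median of 6426 UMIs against 2413 to 3374, and its NON-EC sum rested on 13 cells. EC cells of different libraries shared no barcode, and 1 to 8 kept cells did per pair of libraries. EC sums also held transcripts of other lineages. The 10 goblet markers added up to 8055, 5739, 4384 and 15596 CPM in EC, and to between 60053 and 65594 CPM in barcodes with 1 to 50 UMIs, taken as free RNA.

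EC and NON-EC differed in listed hormones, granins, channels and transcription factors. A name describes the expression of the same cells, so levels are given here without a test. Of 9335 genes compared, 197 (2.11%) were at least 2-fold higher in EC in each of the 4 libraries and 148 (1.59%) at least 2-fold lower. Ratios are on the log2 scale of CPM with 1 added, which understates the ratio of low genes.

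Besides the markers, the highest ratios belonged to a mixed group of genes. Afp, alpha-fetoprotein, a plasma protein of the fetal liver and yolk sac, had 1788.5, 1303, 4615 and 1536 CPM in EC and a mean of 12.3 in NON-EC. APC-KO 1 was well above the other libraries for Afp. Reg4, a secreted lectin, had 5183, 2900.4, 7158 and 7088 CPM in EC and 56 in NON-EC, and PANETH cells had 1880.1 CPM of it. Tpbg, a membrane glycoprotein that modulates Wnt signalling, had 176, 131.4, 216 and 229 CPM in EC and 1.11 in NON-EC. Lmx1a, a LIM homeodomain factor, had 216, 192, 271 and 184.5 CPM in EC and 2.26 in NON-EC. For these 4 genes the lowest EC library lay above the highest NON-EC library.

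Several of the leading genes were nearly absent from NON-EC. Slc38a11, a putative amino acid transporter, had 410 UMIs in EC and 2 in NON-EC, a 150-fold ratio of their shares of all UMIs with a 95% counting interval from 41.3 to 1243. Pappa2, a protease of insulin-like growth factor binding proteins, had 377 against 1 UMI, a ratio of 276 (49.2 to 10926). Fmo2, a flavin monooxygenase, had 343 against 1 UMI, a ratio of 251 (44.8 to 9943). These intervals cover counting error only, and they are wide because NON-EC held so few UMIs. Trpc7, a calcium-permeable channel, had 162 UMIs in EC and none in NON-EC, and was at least 39.5-fold higher in EC when 3 counts over all NON-EC cells are taken as the floor. Il18r1, a receptor chain for interleukin 18, had 278 against 3 UMIs, a ratio of 67.8 (23 to 331). Dusp2, a phosphatase of MAP kinases, had 54.3, 43.8, 69.5 and 129.8 CPM in EC and 1 UMI in NON-EC.

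Against the highest of all 11 other names, the leading genes were Afp, Tph1, Trpa1, Slc38a11, Pappa2, Lmx1a, Tac1, Trpc7, Dusp2, Cnksr2, Vim, Ucn3, Il18r1, Fmo2 and Slc18a2. Vim, the intermediate filament vimentin, better known from mesenchyme, had 1998, 2170.5, 1775 and 1046 CPM in EC and a mean of 50.6 CPM in NON-EC, the next highest name. Cnksr2, a scaffold of Ras signalling, had 93.4, 88.7, 51.2 and 71.7 CPM in EC and 0.948 in NON-EC, again the next. For Il18r1 the next name was GOBLET at 2.45 CPM and for Fmo2 it was ISC, the stem cells, at 4.11 CPM. Gstk1, high against NON-EC (101 against 1.39 CPM), was left out of this group by ENTERO-PRO, which had 47.8 CPM.

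**Figure D2:**
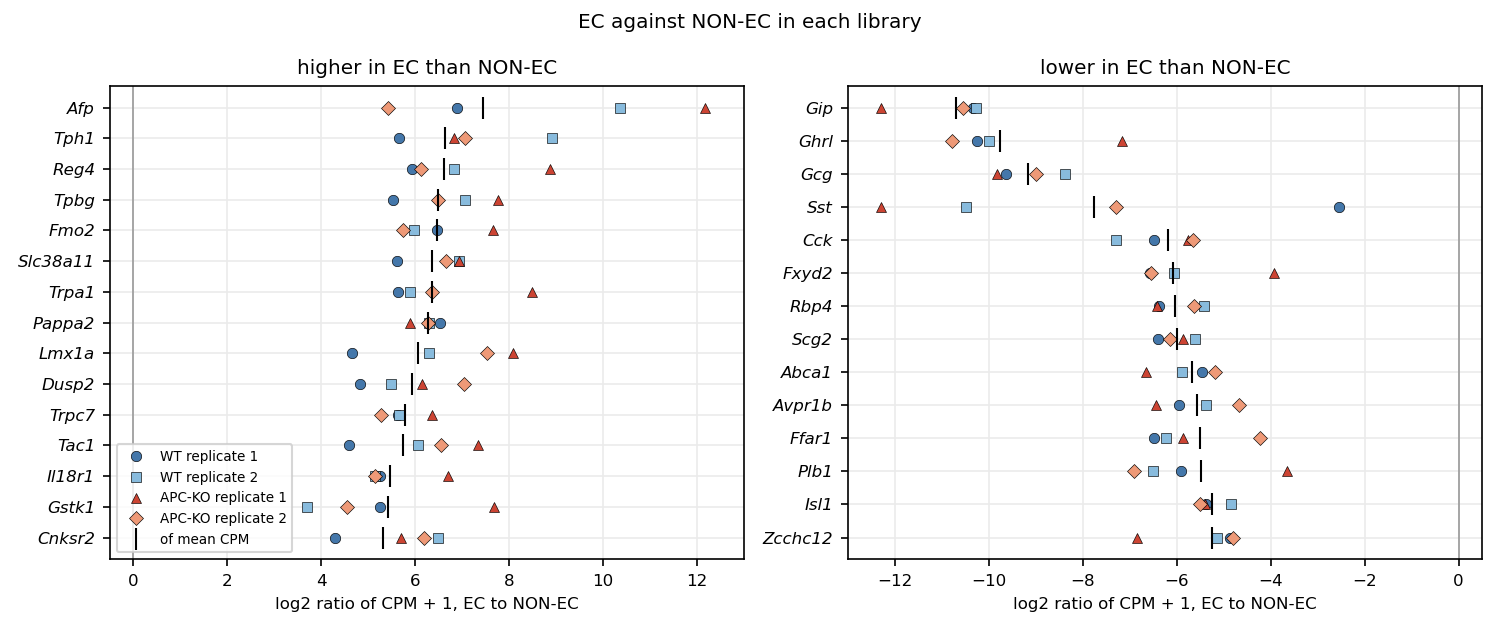
Log2 ratio of CPM with 1 added, EC to NON-EC, for the 15 genes with the highest ratio and 14 of those with the lowest. Each symbol is 1 library and the tick is the ratio of the means. All symbols lie on 1 side of 0 for each gene.

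In the serotonin pathway, the first enzyme and the vesicular transporters set EC apart. Of 13 listed genes compared, Tph1, Slc18a1 and Slc18a2 were at least 2-fold higher in EC in each library and none was lower. The median log2 ratio was 0.46, against -0.09 over all genes. Ddc, the decarboxylase that completes synthesis, had 848, 937, 1006 and 684 CPM in EC and a mean of 568 in NON-EC, so it was high in both. Gch1, which starts synthesis of the cofactor of tryptophan hydroxylase, had 478, 533, 329 and 244 CPM in EC, 196 in NON-EC and 9.37 in EEC-PRE. The transporters Slc18a1 and Slc18a2 load serotonin into granules. Slc18a1 had 218, 179.5, 278 and 248 CPM in EC and 48.3 in NON-EC. Slc18a2 had 92.6, 43.8, 143 and 244 CPM in EC and 5.28 in NON-EC, and varied more between libraries. Genes of breakdown and reuptake were low: Maoa, a monoamine oxidase, had 11.7 CPM in EC and 315 in ENTERO-PRO, and the reuptake transporter Slc6a4 had 1.39 and 20.8 CPM.

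Peptide hormones divided the endocrine names. Of 12 listed genes compared, Tac1, Ucn3 and Cartpt were at least 2-fold higher in EC in each library. Cck, Gcg, Gip, Sst and Ghrl were lower, as was Mboat4, a listed enzyme that acylates ghrelin and no hormone itself. Ghrl (ghrelin) had 14.4, 10.7, 22 and 9.11 CPM in EC and between 3284.5 and 18808 CPM in NON-EC. Gip (the incretin GIP) had a mean of 1.9 CPM in EC and 4796 in NON-EC, and Gcg (glucagon and GLP-1) had 1 UMI in EC and 1685 in NON-EC. Cck (cholecystokinin) had 64.7, 37.4, 139 and 74 CPM in EC and 5819.5 in NON-EC. All of these were far below NON-EC in every library. Sst (somatostatin) had 108, 0, 3.66 and 9.11 CPM in EC, with WT 1 the only EC sum above 10 CPM. In NON-EC it had 637, 1425, 23177 and 1584 CPM, and the APC-KO 1 value came from 13 cells. Secretin was shared by both names, as Sct had 4267, 4037.5, 4062 and 4188 CPM in EC and 2003 in NON-EC. Ucn3 (urocortin 3) had 51.1, 39.5, 87.8 and 75.2 CPM in EC and 1.47 in NON-EC. Cartpt, the precursor of the CART peptide, had 51.9, 46, 51.2 and 28.5 CPM in EC and 1 UMI in all NON-EC cells.

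Among granins and prohormone processing genes, Chga, Chgb, Vgf and Resp18 were at least 2-fold higher in EC in each library, 4 of 11 compared, and Scg2 was lower. Scg2 (secretogranin 2) had 4 UMIs in EC and 363 in NON-EC, the opposite of Chgb. Vgf, a precursor of secreted peptides, had 55.1, 51.3, 132 and 47.8 CPM in EC and 9.09 in NON-EC. The convertase Pcsk1 had 750.3 ± 53.6 CPM (SD, n = 4) in EC and 402 in NON-EC. Cpe and Pam, which trim and amidate peptides, were on the other side, with 441.5 and 300.4 CPM in EC and 869 and 508 in NON-EC.

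Exocytosis genes were mostly level between the names, with exceptions in single family members. Of 20 compared, Rab3c, Snap25 and Ptprn were at least 2-fold higher in EC in each library and none was lower, with a median log2 ratio of -0.12. Rab3c, a small GTPase of secretory vesicles, had 503, 375, 490.4 and 551 CPM in EC and 41 in NON-EC. Its relatives Rab3a, Rab3b and Rab3d had 21.5, 25.1 and 158 CPM in EC and 15.6, 12 and 184 in NON-EC. Snap25, a SNARE protein of the plasma membrane, had 174 ± 9.52 CPM (SD, n = 4) in EC and 47.6 in NON-EC. Ptprn, a membrane protein of dense granules, had 57.3 ± 12.3 and 8.99 CPM.

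Sensors and channels separated the names in both directions, 3 of 18 higher and 4 lower in EC. The higher genes were Trpa1, Trpm2 and Scn3a. Scn3a, a voltage-gated sodium channel, had 766.5, 705, 812 and 772 CPM in EC and 46.4 in NON-EC. Trpm2, a cation channel that responds to oxidative stress, had 51.1, 31, 7.32 and 22.8 CPM in EC and 2.16 in NON-EC. In APC-KO 1, 7.32 CPM in EC stands for 2 UMIs, and 1 UMI in NON-EC stands for 14.3 CPM. The 2-fold rule thus rested on few counts there. The lower genes included nutrient-sensing receptors and channels. The fatty acid receptor Ffar1 had 2 UMIs in EC and 186 in NON-EC. Abcc8 and Kcnj11, subunits of the ATP-sensitive potassium channel, had 2.47 and 0.467 CPM in EC and 100 and 30.8 in NON-EC, and the calcium channel Cacna1c had 14.1 and 72.3 CPM. Ffar2, a receptor of short-chain fatty acids, had 284 CPM in EC and 243 in NON-EC, and was not among the 7. The mechanosensitive channel Piezo2 had no UMI in EC or NON-EC.

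Transcription factors of the endocrine branches differed as well. Of 24 compared, Lmx1a and Mnx1 were at least 2-fold higher in EC in each library, and those lower included Pax6, Isl1, Hhex, Etv1 and Prox1. Mnx1, a homeodomain factor, had 83.8, 66.3, 98.8 and 68.3 CPM in EC and 5.63 in NON-EC. Isl1, a LIM homeodomain factor, had 35.1, 52.4, 40.3 and 23.9 CPM in EC and 1479 in NON-EC. Pax6 had 107 and 364 CPM, and Hhex, a factor of somatostatin cells, 7.7 and 102 CPM. Factors general to endocrine cells were near level, with Neurod1 at 1359 CPM in EC and 1132 in NON-EC, Insm1 at 342 and 332, and Rfx6 at 240.2 and 325. Fev, a factor of serotonergic neurons, had 469.5, 449, 439 and 419 CPM in EC, 215 in NON-EC and 47.1 in EEC-PRE.

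Neurog3, which marks the precursor phase, was still found in EC, at 677, 602, 596.5 and 508 CPM. This lay below the mean of 1748 CPM in EEC-PRE and above that of 289.5 in NON-EC. Sox4, another factor of precursors, had 571 CPM in EC, 740.2 in NON-EC and 3515 in EEC-PRE. Of 10 cell cycle genes, 9 Notch genes and 11 Wnt targets compared, none was at least 2-fold higher or lower in EC in each library.

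BMP response genes were among the differences outside secretion. Of 6 compared, Id1, Id2 and Id3, which BMP signals induce, were at least 2-fold higher in EC in each library, and Bambi, a decoy receptor, was lower. Id1 had 192, 267, 205 and 96.8 CPM in EC and 22.6 in NON-EC, and Id3 had 229.9, 326, 154 and 142 CPM in EC and 35.8 in NON-EC. APC-KO 2 was the lowest library for both. GOBLET cells had 289 CPM of Id1 and 244.5 of Id3, more than EC on average. Id2 had 257, 317, 318 and 171 CPM in EC and 88.6 in TUFT, the next highest name. Bambi had 8.59 CPM in EC and 79.3 in NON-EC, while the receptor Bmpr1a had 160.2 and 162 CPM.

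Immediate early genes, which tissue dissociation can induce, had a higher mean in EC than in NON-EC for 13 of 13 genes, with a median log2 ratio of 0.92. Over all 9335 genes compared, 3799 had a higher mean in EC. Fos had 1421 CPM in EC, 731 in NON-EC and 1508 in GOBLET-PRE. Jun had 1982, 1058.5 and 1521 CPM. Of these 13 genes, Hspa1a alone was at least 2-fold higher in each library. Among the markers of other lineages that could be compared (10 goblet, 8 Paneth, 3 tuft, 9 enterocyte, 6 stem cell and 2 immune), Anpep, an enterocyte peptidase, was at least 2-fold lower in EC in each library and the others were neither higher nor lower by that rule.

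**Figure D3:**
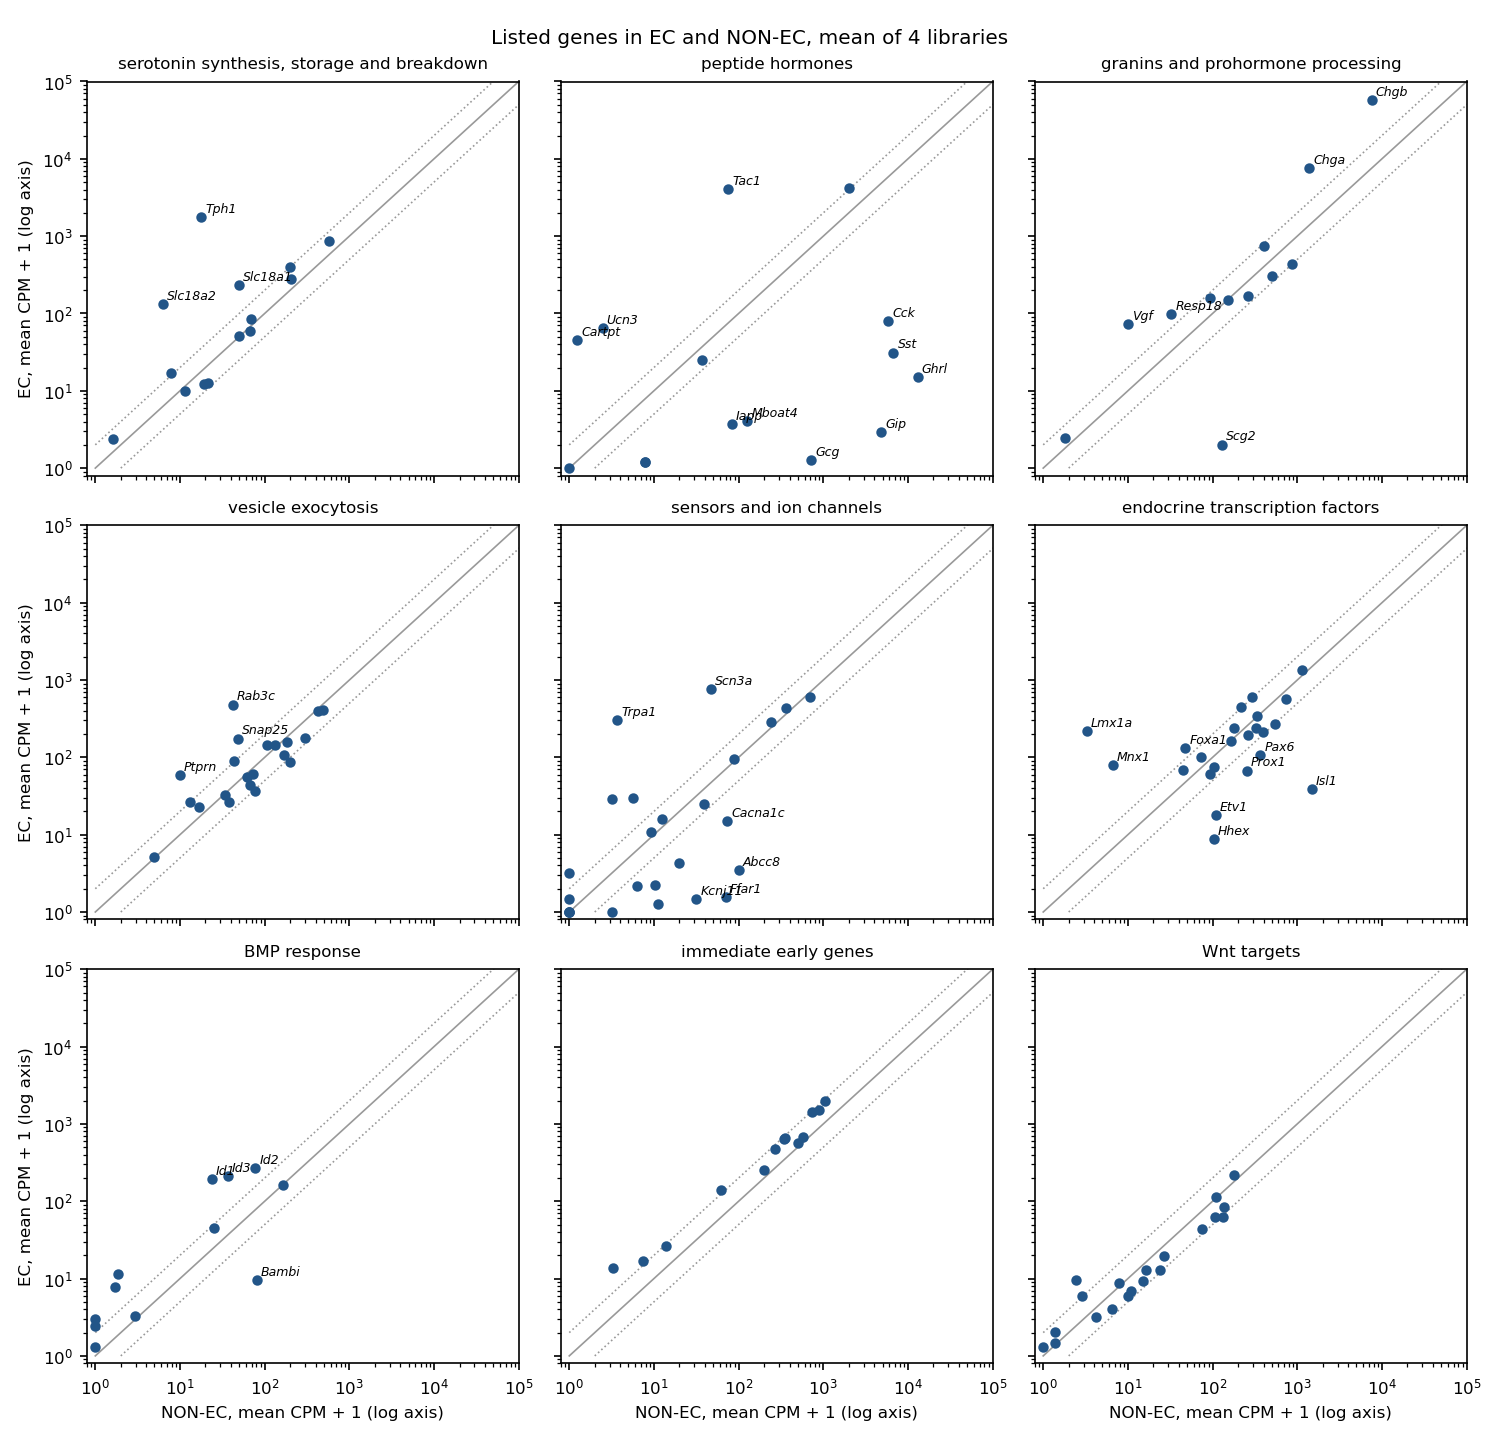
Mean CPM with 1 added over the 4 libraries, EC against NON-EC, for the genes of 9 lists, on log axes. The solid line marks equal levels and the dotted lines a 2-fold difference. Peptide hormones lie far from the line on both sides, while most exocytosis genes stay near it.

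Within EC, most cells held the secretory markers and a minority the sensor Trpa1. Thinning to 2000 UMIs kept 353, 258, 45 and 249 EC cells. Chgb was found in 99.2%, 98.8%, 100% and 97.2% of them, Tac1 in 79.9%, 78.7%, 86.7% and 75.5% and Tph1 in 73.7%, 71.7%, 77.8% and 70.7%. Trpa1 was found in 23.8%, 19.8%, 24.4% and 26.1%. The 4 libraries were similar for each gene. Without thinning, the mean share over the libraries was 77.8% for Tph1 and 29.6% for Trpa1. ENTERO-PRO cells, which should lack these genes, gave the background in the 3 libraries that had enough of them. There Chgb was found in 3.48%, 7.81% and 5.41% of thinned cells, Tac1 in at most 1.74%, Tph1 in at most 1.56% and Trpa1 in at most 0.216%. Before thinning, the median depth per library was 2413 to 6426 UMIs in EC and 4943 to 7655 in ENTERO-PRO, and at the common thinned depth the EC share was above the ENTERO-PRO share for each of these 4 genes in each of the 3 libraries.

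Neurog3 was found in 41.4%, 38.8%, 37.8% and 39% of the thinned EC cells, and the cells with and without it are described side by side. Trpa1 was found in 5.48%, 7.0%, 0% and 9.28% of EC cells with a Neurog3 UMI and in 36.7%, 27.8%, 39.3% and 36.8% of those without. The direction was the same in all 4 libraries, and the 0% came from 17 cells. Ucn3 was found in 2.06%, 0%, 0% and 1.03% with and in 8.7%, 8.23%, 14.3% and 9.21% without. Cartpt was found in none of the cells with a Neurog3 UMI and in 4.35%, 6.96%, 7.14% and 4.61% of those without. Sct was found in 43.8%, 34%, 58.8% and 40.2% with and in 72.5%, 73.4%, 60.7% and 57.2% without. In APC-KO 1 the Sct shares were close, and its level was higher with Neurog3, at 4971 CPM against 3446. The hormone Cck had the higher share with Neurog3 in 3 of the 4 libraries, at 13%, 7.0%, 11.8% and 20.6% with and 5.8%, 3.8%, 14.3% and 7.24% without. Sox4 had the higher share with Neurog3 in all 4, at 67.8%, 75%, 64.7% and 71.1% with and 56.5%, 55.1%, 42.9% and 41.4% without. For Tph1 the libraries did not move alike, with 59.6%, 51%, 88.2% and 59.8% in cells with a Neurog3 UMI and 83.6%, 84.8%, 71.4% and 77.6% in those without, so APC-KO 1 was reversed. Id1 was reversed in the same library, at 10.3%, 16%, 23.5% and 7.22% with and 32.9%, 41.1%, 17.9% and 18.4% without. These shares are a description with no test.

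**Figure D4:**
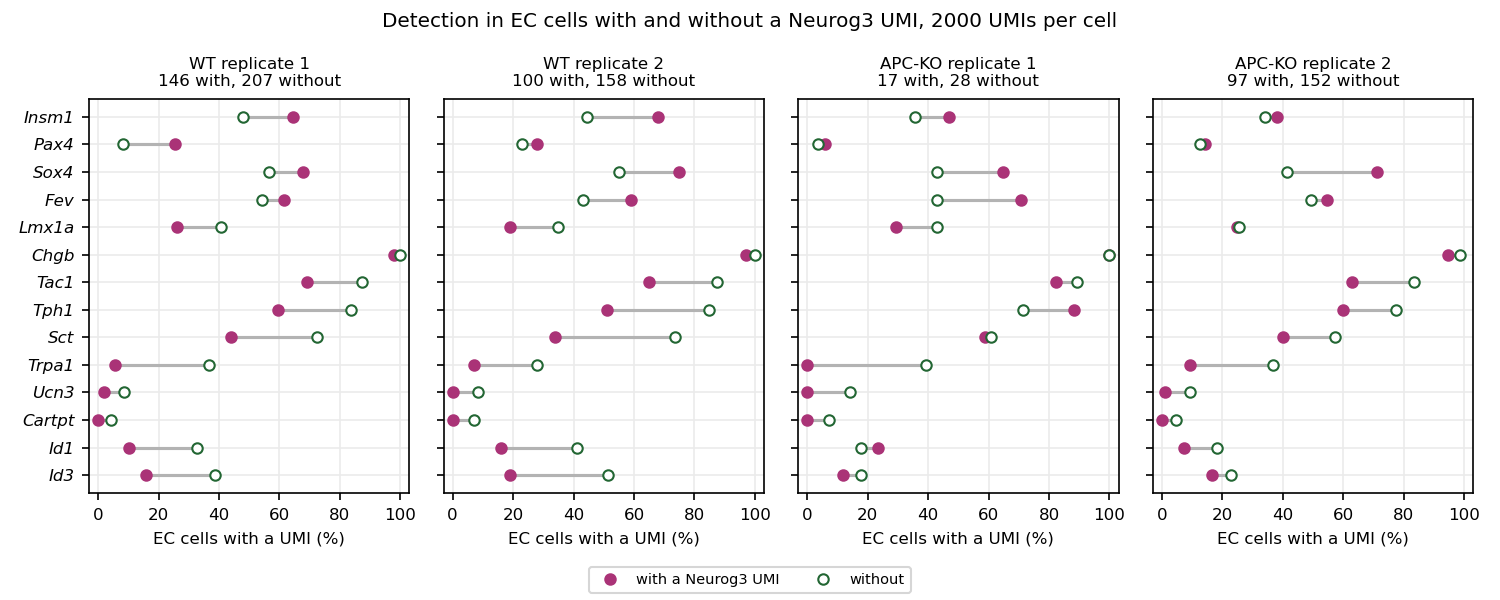
Share of EC cells with a UMI of each gene, in percent, among cells with (filled) and without (open) a Neurog3 UMI, after thinning to 2000 UMIs per cell. Each panel is 1 library, with its numbers of cells above it. Trpa1, Ucn3 and Cartpt have the open symbol to the right in every panel, and Sox4 has it to the left.

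Other genes were found in the same EC cells. Ucn3 was found in 21.4%, 17.6%, 36.4% and 20% of cells with a Trpa1 UMI and in 1.12%, 1.93%, 0% and 1.09% of cells without. Rab3c was found in 56.4%, 48.3%, 61.5% and 58% of cells with a Tac1 UMI and in 15.5%, 7.27%, 0% and 24.6% of cells without. In both pairs the share was higher beside the first gene in each library, and the 0% for Rab3c came from 6 cells. Cartpt was found in 4.21%, 7.33%, 7.41% and 5.56% of cells with a Sct UMI and in none of the 388 cells without one.

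Loss of Apc might change how many EC cells the sort returns, and the share of EC among kept cells was compared for this. It was 8.04% (95% Clopper-Pearson interval 7.29 to 8.84) in WT 1, 7.07% (6.27 to 7.93) in WT 2, 12.6% (9.37 to 16.5) in APC-KO 1 and 4.98% (4.46 to 5.55) in APC-KO 2. The intervals cover counting error only, and the APC-KO libraries lay on either side of the WT libraries. The APC-KO mean was 1.26 percentage points higher (two-sided exact permutation test, p = 1, where 2 against 2 libraries can give no less than 0.3333), and without APC-KO 1 the difference was -2.57. Among cells named EC, NON-EC or EEC-PRE, EC made up 43.4%, 45.9%, 61.6% and 42.9%. That difference was 7.62 percentage points (two-sided exact permutation test, p = 1) and -1.75 without APC-KO 1.

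The targeted gene was read first in the comparison of genotypes. Apc, the scaffold of the complex that degrades beta-catenin, had 117, 116.5, 146 and 154 CPM in EC, a log2 difference of 0.43 (SE 0.18, adjusted p = 0.573 in edgeR's quasi-likelihood test with Benjamini-Hochberg adjustment, which is used throughout). Counts come from 3' ends of transcripts and the deleted exons are not named in the labels, so this level checks nothing about the deletion.

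No gene passed the threshold of 0.05 between the genotypes in EC in the edgeR test. It called 0 of 8690 genes (0%), with a lowest adjusted p of 0.0944. At an unadjusted p under 0.05 there were 729 (8.39%), of which 436 (5.02%) were higher and 293 (3.37%) lower in APC-KO. DESeq2's Wald test passed 13 of the 1783 genes to which it gave an adjusted p (0.729%). The edgeR count depended on single libraries, with 405 genes called when APC-KO 1 was left out and 102 when APC-KO 2 was, in fits that assume the lone APC-KO library to vary like the WT pair.

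None of the 5 EC markers was called. The log2 difference, APC-KO to WT, was -0.27 (SE 0.24) for Tph1, -0.22 (SE 0.33) for Tac1, 0.28 (SE 0.27) for Chga and 0.07 (SE 0.33) for Chgb. For Trpa1 it was 0.50 (SE 0.21, edgeR adjusted p = 0.55). Of the other serotonin genes, Slc18a2 had a log2 difference of 1.61 (SE 0.34, edgeR adjusted p = 0.329) and was called by the DESeq2 Wald test (adjusted p = 0.041). Gch1 had a log2 difference of -0.78 (SE 0.22, edgeR adjusted p = 0.414). The genotypes did not overlap for Slc18a2 and Gch1, nor did they for 38.9% of all genes tested (14.6% higher and 24.3% lower in APC-KO).

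The genes with the lowest p-values did not pass the edgeR threshold and are given as levels. Those higher in APC-KO were Meg3, Scg5, Timp3, Psat1, S100a1, Pet100, Bex1, Slc18a2, mt-Nd4l and Fbln2. Meg3, an imprinted long noncoding RNA, had 22.4, 12.8, 65.9 and 88.8 CPM in EC, a log2 difference of 2.22 (SE 0.31, edgeR adjusted p = 0.098). Scg5, the granule chaperone 7B2, had 82.2, 85.5, 179 and 239 CPM, a log2 difference of 1.43 (SE 0.20, edgeR adjusted p = 0.098). In NON-EC, Scg5 had 77.7 and 128 CPM in the WT pair against 186 and 217 in the APC-KO pair. Psat1, an enzyme of serine synthesis, had 26.3, 12.8, 91.5 and 70.6 CPM in EC. Timp3, an inhibitor of metalloproteinases, had 24, 24.6, 54.9 and 79.7 CPM, and S100a1, a calcium-binding protein, 195, 145, 355 and 398.5 CPM. The higher WT library lay below the lower APC-KO library for each of these genes in EC, which the choice of genes required. The same was true of 14.6% of all genes tested.

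Those lower in APC-KO were AY761184, Arg1, Klf2, Mptx2, Ier3, Arhgap18, Mrps28, Sh3kbp1, Ckb and Txnip. AY761184, an alpha-defensin gene of Paneth cells, had 198, 265, 54.9 and 62.6 CPM in EC, a log2 difference of -1.87 (SE 0.23, edgeR adjusted p = 0.094). Free RNA held 2906, 4781, 895.5 and 829 CPM of it, and with free RNA subtracted the log2 difference was -1.05. Arg1, arginase 1, had 82.2, 62, 7.32 and 18.2 CPM in EC, a log2 difference of -2.17 (SE 0.36, edgeR adjusted p = 0.186). Klf2, a zinc finger factor, had 88.6, 93, 40.3 and 34.2 CPM and Txnip, an inhibitor of thioredoxin, 332, 415, 201 and 200.4 CPM. From the transcription factor list, Insm1, a zinc finger factor of endocrine differentiation, had 408, 488, 267 and 204 CPM in EC, a log2 difference of -0.89 (SE 0.22, edgeR adjusted p = 0.395). In NON-EC it had 434 and 472.5 CPM in the WT pair against 243 and 179 in the APC-KO pair, so the order of the libraries was alike in both names. Mptx2, a pentraxin of Paneth cells, had 46.3, 70.5, 22 and 4.56 CPM in EC, while free RNA held 462, 1252, 234 and 250.4 CPM of it. The part of free RNA in the Mptx2 levels was not tested beyond the fit with a fixed 5% subtracted.

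**Figure D5:**
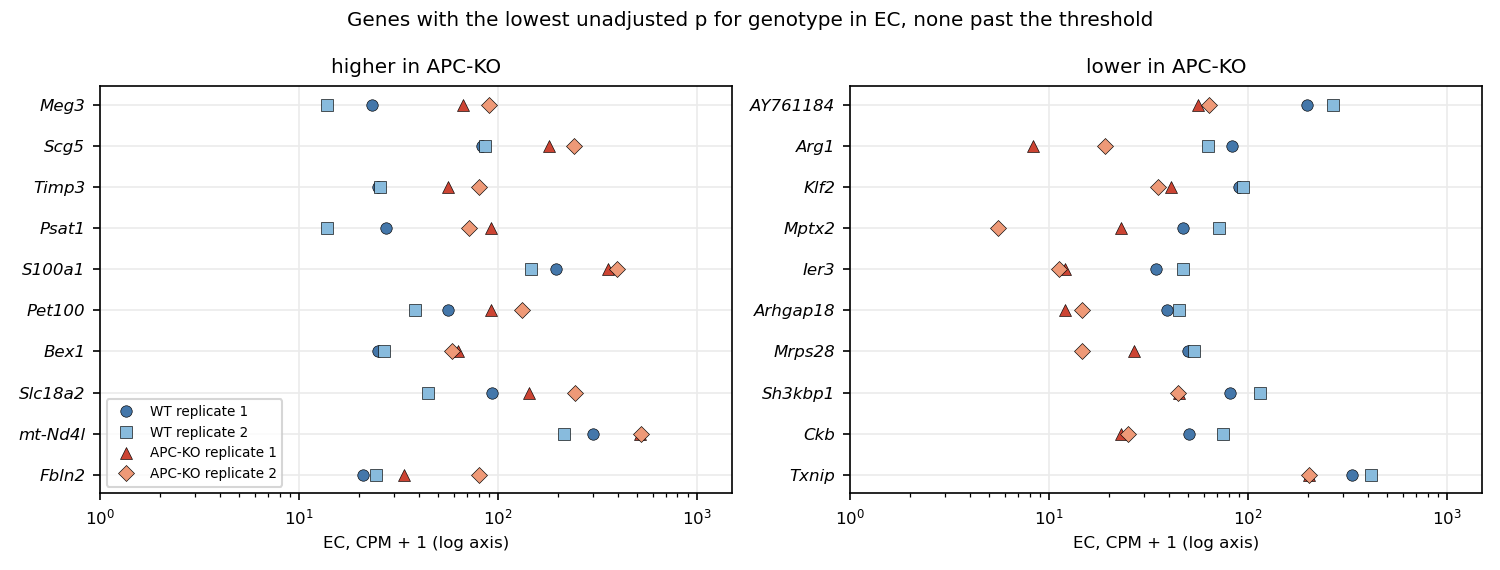
CPM with 1 added in EC cells of each library, on a log axis, for the 10 genes per direction with the lowest unadjusted p in the edgeR test of genotype, among genes with a mean of at least 20 CPM and no overlap. Each symbol is 1 library. The genotypes do not overlap for any of the 20 genes, which the choice of genes required, and none passed the threshold.

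Of the 13 genes past the threshold in DESeq2, 11 were higher and 2 lower in APC-KO. Ribosomal protein genes (Rpl35, Rpl36, Rpl37, Rpl37a, Rps21 and Rps27) and mitochondrial genes (mt-Nd3 and mt-Nd4l) were most of the higher ones, beside Scg5, S100a1 and Slc18a2. Rps27 had 1074, 627, 1804 and 2400.2 CPM in EC, and in NON-EC it had 1166.5 and 688 CPM in the WT pair against 1842 and 2546 in the APC-KO pair. Free RNA held 1289, 918, 1730 and 2786 CPM of it. For each of these ribosomal and mitochondrial genes the APC-KO pair lay above the WT pair in NON-EC and in free RNA as well as in EC. The share of such genes among those given an adjusted p was not counted. AY761184 and Defa30, another alpha-defensin gene, were lower. Paneth markers summed to 3078, 4416, 933 and 4478 CPM in EC and to 32015, 54573, 14861 and 27107.5 CPM in free RNA. The part of free RNA in the defensin values was not tested beyond the subtraction given above for AY761184.

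No listed gene passed the edgeR threshold for genotype. Over all 8690 genes tested, 4325 had a positive and 4365 a negative log2 difference. Wnt targets, which Apc restrains, had 7 tested members, of which 6 had a positive log2 difference, with a median of 0.49 against -0.002 over all genes. Ephb2 and Ephb3, receptors that position cells along the crypt, had 51.1, 36.3, 76.9 and 80.8 CPM and 39.1, 54.5, 62.2 and 91.1 CPM. Axin2, a feedback inhibitor of Wnt signalling, had 44.7, 28.9, 36.6 and 59.2 CPM, and its genotypes overlapped. Lgr5, the stem cell receptor, had 3.19, 2.14, 3.66 and 23.9 CPM, with APC-KO 2 far above the others. Without APC-KO 2 the median of the Wnt list was -0.065 over 9 tested members. Without APC-KO 1 it was 0.897 over 13. The filter was run anew in each fit, so these medians are not over the same genes. Stem cell markers summed to 327, 355, 176 and 651 CPM in EC and immune markers to 111, 110.1, 117 and 331 CPM. APC-KO 2 was the highest library in both sums and in the goblet sum given above, and their part in the Wnt values was not tested.

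BMP response genes had 6 tested members, 5 of them with a negative log2 difference, and a median of -0.43. Id3 had a log2 difference of -0.85 (SE 0.22, edgeR adjusted p = 0.396) and Id1 one of -0.66 (SE 0.32, edgeR adjusted p = 0.621). Leaving out 1 library at a time put the median between -0.808 (without WT 1) and -0.071 (without APC-KO 2), both over 7 members. Bmp2, a ligand of the pathway, had 3.99, 6.41, 18.3 and 12.5 CPM, the other direction. Granins and processing genes had 10 tested members, 9 with a positive difference and a median of 0.26, which was -0.044 without APC-KO 1 and 0.458 without APC-KO 2. Endocrine transcription factors had 22, of which 17 were negative (4365 of 8690 over all genes), with a median of -0.12. This median was -0.279 without APC-KO 1 and 0.016 without APC-KO 2, both over 23 members. The signs of both medians thus turned with 1 library.

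Whether the genotype difference itself differed between EC and NON-EC was tested with an interaction term and the library as a block. edgeR called 11 of 9335 genes (0.118%), 8 of them (0.0857%) with a more positive difference in EC and 3 (0.0321%) with a more negative one, at adjusted p-values up to 0.018, and 473 (5.07%) had an unadjusted p under 0.05. None passed in DESeq2, where 34 had an unadjusted p under 0.05. Cdkn1a, the cell cycle inhibitor p21, had 354.5, 324, 790.5 and 507 CPM in EC, while in NON-EC it had 2874 and 3740.4 CPM in the WT pair against 2142 and 1950 in the APC-KO pair, an interaction of 1.57 on the log2 scale (SE 0.23). Rbp2, a retinol-binding protein of the gut, had 113, 106, 256 and 129.8 CPM in EC and in NON-EC 480.4 and 347 CPM in the WT pair against 257 and 185.5, an interaction of 1.56 (SE 0.24). ENTERO-PRO had a mean of 3409 CPM of Rbp2. Free RNA held 550, 554, 2102 and 531 CPM of it, highest in APC-KO 1, as in EC. Entpd5, a nucleotidase of the endoplasmic reticulum, had 75.1, 66.3, 139 and 101 CPM in EC and in NON-EC 97.6 and 90.1 CPM in the WT pair against 42.8 and 50.7, an interaction of 1.49 (SE 0.34). For these 3 genes APC-KO lay above WT in EC and below it in NON-EC, with no overlap in either name. The share of all genes with this pattern was not counted. In EC alone the genotypes did not overlap for 38.9% of genes tested. In the NON-EC sum of APC-KO 1, from 13 cells, the 3 genes had 150, 18 and 3 UMIs. Free RNA lay below EC in each library for Cdkn1a and Entpd5. With 5% of free RNA subtracted, all 11 genes were called again. That share was fixed for every library, while goblet marker sums in EC ran from 4384 to 15596 CPM. A fixed share thus cannot settle how much free RNA each sum held. The part of free RNA in the levels was not tested otherwise.

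The NON-EC sum of APC-KO 1, from 13 cells, held no UMI of 4 of the other called genes. Rgs2, a regulator of G protein signalling, had 263, 221, 692 and 279 CPM in EC, and this sum held none. The same sum held no UMI of Rab3c, Mptx2 or Nupr1, and 23177 CPM of Sst against 637 to 1584 CPM in the other NON-EC sums. Reg3b, an antimicrobial lectin, had 137, 21.4, 102.5 and 338 CPM in EC, where the genotypes overlapped. Leaving out 1 library leaves a genotype with a single library, whose spread is then taken from the pair of the other genotype. Calls in such fits are therefore no independent check, and effect sizes are given here. Without APC-KO 1, the interaction of Sst was -3.50 in place of -5.47 on the log2 scale. Without WT 1 it was 3.27. Without APC-KO 2 the median interaction of all genes was 0.24.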

How the data were processed

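Droplet 3' single-cell RNA libraries were made from sorted cells. Per the submitters' processing notes, Cell Ranger 3.0.2, STAR and mm10 were used. The authors deposited unfiltered matrices of UMI counts (31053 genes) and per-cell tables with UMI and gene counts, the percent of mitochondrial UMIs and a name per cell. How the names were given is not stated in the sources used here, nor was a doublet step, and no doublet caller was run. On their values, kept cells had 901 to 2999 genes and under 7% mitochondrial UMIs. Summed UMIs equalled the tabulated total in 58.1% to 78.7% of cells per library and differed by at most 17 otherwise. Libraries held 54230249 to 61032126 UMIs, of which 5.15% to 50.3% lay in kept cells.

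Counts were summed per library and name (at least 10 cells) and scaled to CPM. Genotype and interaction were tested with edgeR 4.0.16 (quasi-likelihood, TMM, filterByExpr, Benjamini-Hochberg at 0.05, SE taken as the log2 difference over the root of F), with DESeq2 1.42.0 as an alternative, in R 4.3.3. Python 3.11.15, numpy 2.4.6, scipy 1.17.1 and pandas 2.3.3 did the rest. The edgeR step was run on simulated counts with the same dispersion in every library. In these data the log2 CPM of EC sums correlated at 0.967 between the WT libraries and 0.89 between the APC-KO libraries. The simulation therefore does not show how the test performs on these data. Other alternatives were size factors, no filter, cells with at least 2000 UMIs, thinned cells, 5% free RNA subtracted, a replicate block, 5 CPM added and leaving out each library. Gene positions came from GENCODE vM21, in which 30934 gene IDs were matched.

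Named genes were those of 18 lists, the 15 per direction with the extreme ratio of EC to NON-EC (at least 50 CPM in the higher name, 1 direction in each library), the 15 highest against all names, and the 10 per direction for genotype or interaction (at least 20 CPM, no overlap, lowest p where fewer pass). Gene model symbols were counted only (1, lower in EC). An item is not reported here. Interaction calls outside that rule (Sst, Mptx2, Rab3c) were named after their values were seen. The same holds for genes called by DESeq2. The members and lists were chosen with earlier results of these data known.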

Additional observations from a re-analysis of the deposited data

Results flagged for a closer look

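In 11 genes the difference between APC-KO and WT was not the same in EC and NON-EC, by the interaction term of edgeR's quasi-likelihood test. Values are the log2 difference in EC minus that in NON-EC. It was positive for Reg3b (2.242), Reg3g (2.538), Cdkn1a (1.571), Rbp2 (1.561), Rgs2 (2.047), S100a1 (1.306), Entpd5 (1.494) and Nupr1 (2.419). It was negative for Sst (-5.465), Mptx2 (-2.588) and Rab3c (-1.385). For Cdkn1a, Rbp2 and Entpd5 the genotypes lay apart in both names and in opposite directions. The NON-EC sum of APC-KO replicate 1 held 150, 18 and 3 UMIs of these genes. They were picked from the interaction calls, and the share of all genes with this pattern was not counted. In EC alone the genotypes did not overlap for 38.9% of genes tested. Nupr1 had 103.6 CPM in EC of APC-KO replicate 2 and between 7.32 and 18.4 CPM in the other EC sums. Reg3b and Reg3g were most abundant in ENTERO-PRO, where Reg3b had a mean of 5022 CPM. Free RNA held 1717, 774, 2309 and 1083 CPM of Reg3b, more than EC in each library. The NON-EC sum of APC-KO replicate 1 held 13 cells. Leaving out 1 library leaves a genotype with a single library. Its spread is then taken from the pair of the other genotype, so calls in such fits are no independent check. The 11 genes were not called alike in these fits. None was called when WT replicate 1 was left out.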

How the results depend on the processing

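The count of genes called for genotype in EC was 0, and became 13 by DESeq2, 174 with no filter beyond 1 count, 4 with cells thinned to 2000 UMIs, and between 0 and 405 when 1 library was left out. The count of interaction genes was 11, and became 0 by DESeq2, 3 with thinned cells, 19 with free RNA subtracted and between 0 and 39 with 1 library left out. The deviations of same-numbered libraries from their genotype means had a correlation of -0.051. With 2 libraries per genotype the crossed pairs must give the opposite value, 0.051. This single value cannot decide whether the numbers pair the libraries. With the replicate block, 0 genotype genes were called (522 at an unadjusted p under 0.05) and 6 interaction genes. With 1 library left out, the share of EC differed by between -2.571 and 5.088 percentage points among kept cells and by between -1.755 and 16.99 among endocrine names. The mean share of EC cells with a Tph1 UMI was 73.46%, 77.77% unthinned and 68.99% at 1500 UMIs. For Trpa1 it was 23.53%, and 29.57% unthinned. Small genotype differences changed sign. Sct was -0.092 with thinned cells. Leaving out 1 library gave Tac1 -0.812 to 0.190, Chgb -0.182 to 0.271, Sct -0.018 to 0.133, Ddc -0.339 to 0.257 and Id2 -0.700 to 0.237. For the interaction, Rab3c was 0.106 by DESeq2, and leaving out 1 library gave Defa30 -0.858 to 0.096, Mptx2 -3.744 to 7.346, Rab3c -1.634 to 7.518 and Sst -8.384 to 3.268. The cause was not tested. Genes at least 2-fold higher in EC than NON-EC numbered 158 to 237 and lower ones 109 to 208 over the alternatives. The few cells of APC-KO replicate 1 limit its sums, which held 273255 UMIs from 45 EC cells and 70025 from 13 NON-EC cells.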
